A study of Homo sapiens with 2 samples.

Results

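Exosomes, small vesicles released by cells, were examined for the microRNAs miR-205, miR-31 and miR-203a. They came from FaDu, an established human line grown from a squamous carcinoma of the hypopharynx. The array names were searched for both arms of miR-205 and miR-31 and for every name of miR-203a, which gave 6 mature miRNAs of the 2549 human miRNAs on the array. These were hsa-miR-205-5p, hsa-miR-205-3p, hsa-miR-31-5p, hsa-miR-31-3p, hsa-miR-203a-3p and hsa-miR-203a-5p, each read by 2 probes with 10 spots per array. RNA of 1 exosome sample per group was labelled with Cy3 (200 ng) and hybridized to 1 array each, one for FaDu cells that received the NC plasmid lentivirus (oe-NC) and one for FaDu cells that received the HOTTIP overexpression plasmid lentivirus (oe-HOTTIP). HOTTIP is a long noncoding RNA of the HOXA locus, and the arrays served to ask which exosomal miRNAs differ when it is overexpressed. Both arrays thus share the cell line, the vector type and the vesicle fraction. The study's methods describe plasmid transfection with a lipid reagent for FaDu cells, whereas the labels name lentivirus, and exosome isolation is described there for macrophage cultures only.

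With 1 array per group, no difference has a replicate check and no p-value was computed. The labels of each array also contradict themselves, since title and treatment name one group and the free-text description names the other. Titles and treatments were followed, and every direction below is reversed if the descriptions hold instead. The deposited table of normalized values also matched each sample to the scanner values of the other. If its columns rather than the scanner files are correctly assigned, directions from scanner values are reversed even where titles and treatments hold. Errors are spot-to-spot SDs, taken within each probe and then pooled, and cover technical error within an array only.

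The 3 miRNA genes belong to the repertoire of squamous epithelium. miR-205 is enriched in stratified epithelia and, with the miR-200 family, represses ZEB1 and ZEB2, transcription factors that drive the loss of epithelial character. miR-203 accumulates as keratinocytes leave the basal layer and represses TP63, which maintains basal progenitors. miR-31 is induced in proliferating keratinocytes and is often abundant in squamous carcinomas. Each hairpin precursor is cut into a 5p and a 3p arm, of which the guide arm is retained in Argonaute, by common knowledge the 5p arm for miR-205 and miR-31 and the 3p arm for miR-203a.

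The mature sequences that the probes were made to read are shown so that arms and loci can be told apart by their bases. They are from RefSeq (GRCh38.p14), written 5′ to 3′ with the seed (bases 2 to 8), the stretch that chooses targets, in capitals, and 5 of the 6 miRNAs had an entry.
miR-205-5p: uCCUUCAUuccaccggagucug
miR-205-3p: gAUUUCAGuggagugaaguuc
miR-31-5p: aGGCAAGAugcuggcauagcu
miR-203a-3p: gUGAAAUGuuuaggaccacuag
miR-203a-5p: aGUGGUUCuuaacaguucaacaguu
All 5 seeds differed, and no other mature miRNA in the RefSeq table carried any of them, so none of these miRNAs has a seed family within that table. Among the 2248 array names with a sequence, the entry closest to miR-205-5p was miR-6781-3p, at an edit distance of 8 bases, and the entry closest to miR-31-5p was miR-1256, at 7 bases.

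The precursors are shown next with the mature arms listed by RefSeq in capitals, since the arms of a hairpin come from a single transcript.
MIR205: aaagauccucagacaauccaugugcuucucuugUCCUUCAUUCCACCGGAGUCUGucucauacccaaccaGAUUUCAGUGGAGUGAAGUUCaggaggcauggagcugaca
MIR31: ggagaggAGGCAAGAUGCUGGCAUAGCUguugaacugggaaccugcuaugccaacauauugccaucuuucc
MIR203A: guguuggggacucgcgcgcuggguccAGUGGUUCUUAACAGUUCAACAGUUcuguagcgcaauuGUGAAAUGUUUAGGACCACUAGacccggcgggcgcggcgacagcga
MIR205 lies on the plus strand at chr1:209432133-209432242, inside the noncoding gene MIR205HG. MIR31 lies on the minus strand at chr9:21512115-21512185, inside the noncoding gene MIR31HG. MIR203A lies on the plus strand at chr14:104117405-104117514 and is overlapped on the opposite strand by MIR203B. Through that overlap, miR-203a-3p and miR-203b-5p are complementary over a run of 21 bases, so their probes read opposite strands of the same locus.

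Detection is the flag of the scanner software, set for 328 miRNAs (12.9%) on the oe-NC-labelled array, for 390 (15.3%) on the oe-HOTTIP-labelled array and for 261 on both. The negative control spots, which carry no miRNA probe, had a background-subtracted intensity of 3.87 ± 2.37 (SD, 976 spots) and 3.45 ± 2.21 (SD, 975 spots) on these arrays. No miRNA spot was saturated. The oe-HOTTIP-labelled array was brighter as a whole, the log2 differences of the 261 miRNAs having a median of 0.67. Each array was therefore divided by its 90th percentile of intensity over these miRNAs, 279.9 and 439, after which that median was 0.024. Values called scaled below are multiples of this percentile.

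Of the 6 miRNAs, miR-205-5p, miR-31-5p and miR-31-3p were detected on both arrays, and miR-205-3p, miR-203a-3p and miR-203a-5p on neither. None was detected on 1 array only. Of all 2549 miRNAs, 2092 were detected on neither array. None of the 3 detected on both reached a 2-fold difference in either direction, whereas 102 of the 261 miRNAs detected on both arrays (39.1%) did, 47 higher (18.0%) and 55 lower (21.1%) on the oe-HOTTIP-labelled array. With so few miRNAs, this count does not set them apart from the rest.

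hsa-miR-205-5p, the guide arm of the epithelial miR-205, gave a strong signal on both arrays. Spots of probe A_25_P00010503 ran from an intensity of 245 to 299.7 with a median of 289.97 on the oe-NC-labelled array, and from 265 to 382 with a median of 328 on the oe-HOTTIP-labelled array. Spots of probe A_25_P00010504 ran from 374 to 719 with a median of 535, and from 598 to 730 with a median of 631. The ranges of the arrays overlapped for both probes. All 20 spots of each array were well above background by the scanner's flag, and all 19 usable spots of each array lay more than 2 SD over the negative control mean. The mean intensity was 415 ± 70.3 (SD, 19 spots) on the oe-NC-labelled array and 489.9 ± 44.1 (SD, 19 spots) on the oe-HOTTIP-labelled array. As measured, miR-205-5p was thus 1.18-fold brighter on the oe-HOTTIP-labelled array, a smaller excess than that of the arrays as a whole. After scaling the values were 1.48 ± 0.25 and 1.11 ± 0.10, and the log2 difference was -0.41 with a spread of 0.28 over spots and a standard error from the number of spots of 0.063. Scaled miR-205-5p was therefore 1.33-fold lower on the oe-HOTTIP-labelled array, by more than the spread between spots but less than 2-fold, with a sign that turned to 0.24 on the log2 scale without scaling. Of the 261 miRNAs, 181 had a higher log2 difference and 79 a lower one, and for 84 (32.2%) the absolute difference was smaller.

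The 2 probes of miR-205-5p had differences of the same sign. Probe A_25_P00010503 had a mean intensity of 283 ± 18.5 (SD, 9 spots) on the oe-NC-labelled array and 327 ± 38.2 (SD, 10 spots) on the oe-HOTTIP-labelled array. Probe A_25_P00010504 had 547 ± 95.1 (SD, 10 spots) and 653 ± 49.8 (SD, 9 spots). Their scaled log2 differences were -0.44, with a spread of 0.19, and -0.40, with a spread of 0.27, which lie within each other's spread. The arrays share one layout, so spots at the same grid position could be set side by side. Of the 18 positions usable on both arrays, 16 were brighter on the oe-HOTTIP-labelled array before scaling and all 18 were lower on it after scaling. The scaled log2 differences of these positions ran from -0.71 to -0.21 with a median of -0.43. Positions on one array share its RNA and are not replicates.

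**Figure D1:**
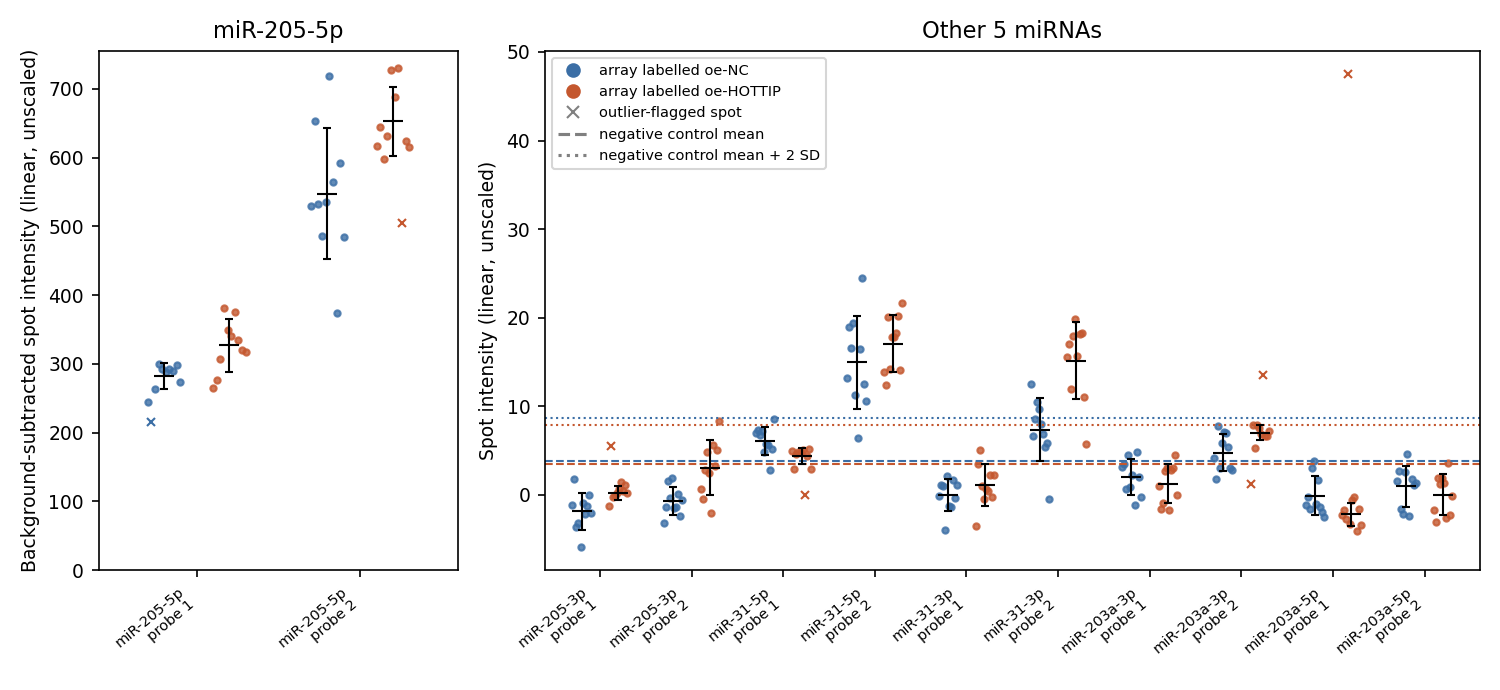
Background-subtracted intensity (linear, unscaled) of each spot, by probe and array, with bars for mean and SD over usable spots and crosses for spots flagged as outliers. The miR-205-5p probes lie at 283 to 653 on average, whereas among the other 5 miRNAs only the second probes of miR-31-5p (both arrays) and miR-31-3p (oe-HOTTIP-labelled array) have means above the dotted lines, the negative control means plus 2 SD.

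**Figure D2:**
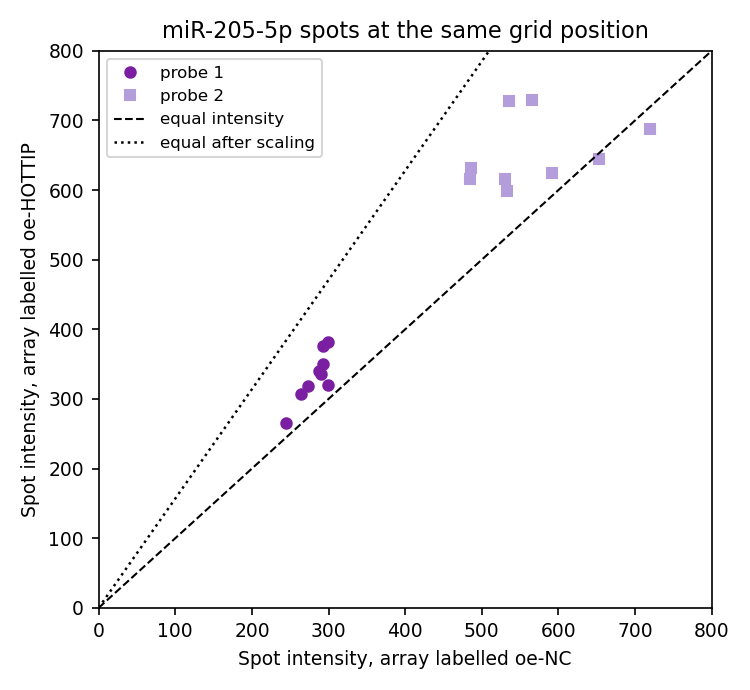
Intensity of miR-205-5p spots at the same grid position on the oe-NC-labelled (x axis) and oe-HOTTIP-labelled (y axis) arrays, by probe. All 18 points lie below the dotted line of equal scaled signal and 16 lie above the dashed line of equal intensity.

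The other arm of the hairpin, hsa-miR-205-3p, was detected on neither array. Its spots ran from -5.85 to 1.95 on the oe-NC-labelled array, with a median of -1.35, and from -2.02 to 8.31 on the oe-HOTTIP-labelled array, with a median of 0.71. None of its 20 spots was well above background on either array. The means, -1.29 ± 1.86 (SD, 20 spots) and 1.66 ± 2.31 (SD, 19 spots), lay under the means of the negative controls. No fold is given, since both arrays were below background. The arms are read by different probes, so their signals were not divided by each other.

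hsa-miR-31-5p, the guide arm of miR-31, was detected on both arrays, but near background. Its spots ran from 2.76 to 24.5 with a median of 7.91 on the oe-NC-labelled array, and from 2.91 to 21.7 with a median of 12.3 on the oe-HOTTIP-labelled array. Well above background were 8 of 20 spots on the oe-NC-labelled array and 10 of 20 on the oe-HOTTIP-labelled array, all of them spots of probe A_25_P00014822. The mean intensity was 10.5 ± 3.88 (SD, 20 spots) and 10.7 ± 2.40 (SD, 19 spots), and the scaled log2 difference was -0.62 with a spread of 0.62 and a standard error from the number of spots of 0.14. The difference was thus as large as the spread between spots and not clearly beyond it. Of the 261 miRNAs, 71 had a lower log2 difference.

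The probes of miR-31-5p differed in how far they stood above the controls. Probe A_25_P00014822 had 15.0 ± 5.25 (SD, 10 spots) on the oe-NC-labelled array and 17.0 ± 3.20 (SD, 10 spots) on the oe-HOTTIP-labelled array, a scaled log2 difference of -0.46 with a spread of 0.57. Probe A_25_P00012019 had 6.08 ± 1.61 (SD, 10 spots) and 4.40 ± 0.87 (SD, 9 spots), within 2 SD of the negative control mean on both arrays. Its scaled log2 difference was -1.12 with a spread of 0.48, so the size of the miR-31-5p difference rests in part on a probe at the level of the controls. At 15 of the 19 usable grid positions the scaled signal was lower on the oe-HOTTIP-labelled array, with log2 differences from -2.19 to 0.83. These were 8 of 9 positions of probe A_25_P00012019 and 7 of 10 of probe A_25_P00014822. Before scaling, 8 of the 19 positions were brighter on the oe-HOTTIP-labelled array and the log2 difference of miR-31-5p was 0.027.

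hsa-miR-31-3p, the passenger arm, was also marked as detected on both arrays. Its spots ran from -3.97 to 12.5 with a median of 1.92 on the oe-NC-labelled array, and from -3.50 to 19.9 with a median of 5.39 on the oe-HOTTIP-labelled array. On the oe-NC-labelled array only 1 of 20 spots was well above background, and the mean of 3.68 ± 2.81 (SD, 20 spots) did not exceed the negative control mean of 3.87. On the oe-HOTTIP-labelled array 8 of 20 spots were well above background, and the mean was 8.10 ± 3.50 (SD, 20 spots). The scaled log2 difference came to 0.49 with a spread of 1.27 and a standard error from the number of spots of 0.28, but it is taken against a signal not above the negative controls and so has no firm size. The detection rested on probe A_25_P00013215, with 7.34 ± 3.54 (SD, 10 spots) and 15.1 ± 4.34 (SD, 10 spots) and a scaled log2 difference of 0.39 with a spread of 0.81, whereas probe A_25_P00013214 lay under the negative control mean on both arrays and gives no ratio. After scaling, 15 of the 20 grid positions of miR-31-3p were higher on the oe-HOTTIP-labelled array. Lower after scaling were 2 of 10 positions of probe A_25_P00013215 and 3 of 10 of probe A_25_P00013214. The positions of the latter compare signals under the control mean, so the count over all 20 carries little. The arms of miR-31 were not compared with each other, since the oe-NC signal of miR-31-3p was not above the controls.

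hsa-miR-203a-3p, the arm that represses TP63, was detected on neither array. Its spots ran from -1.18 to 7.75 with a median of 3.08 on the oe-NC-labelled array, and from -1.69 to 7.92 with a median of 3.78 on the oe-HOTTIP-labelled array. The means, 3.40 ± 2.05 (SD, 20 spots) and 4.13 ± 1.76 (SD, 18 spots), were within 1 SD of the negative control means. Its probes differed, with 2.02 and 1.27 for A_25_P00010628 and 4.77 and 6.99 for A_25_P00010629. All of these probe means were within 2 SD of the negative control means. A single spot, on the oe-HOTTIP-labelled array, was well above background, and it was flagged as an outlier at an intensity of 13.5. miR-203a-5p gave 0.42 ± 2.25 (SD, 20 spots) and -1.10 ± 1.91 (SD, 19 spots), both under the negative control means, and its 1 spot well above background, at 47.5 on the oe-HOTTIP-labelled array, was also flagged as an outlier. miR-203b-5p and miR-203b-3p, from the opposite strand of the locus, were detected on neither array either, with mean intensities between -1.22 and 0.43. These values mean only that the signals could not be told from background on these arrays.

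**Figure D3:**
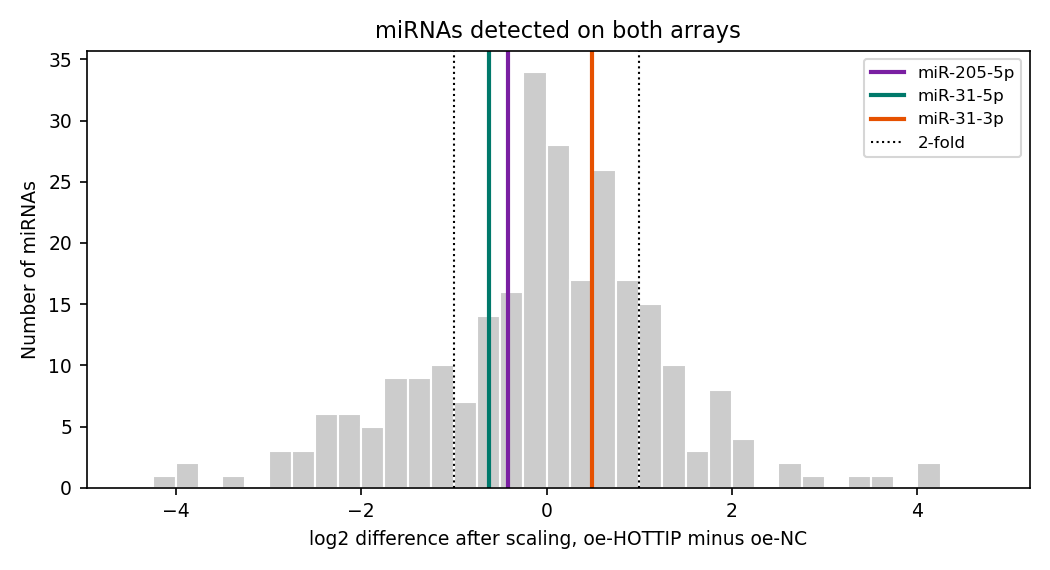
Number of miRNAs by scaled log2 difference (oe-HOTTIP minus oe-NC) for the 261 miRNAs detected on both arrays, with vertical lines for miR-205-5p (-0.41), miR-31-5p (-0.62) and miR-31-3p (0.49) and dotted lines at 2-fold. All 3 lie inside the 2-fold limits, as do 159 of the 261 miRNAs, and the miR-31-3p line has no firm size since its oe-NC signal was not above the negative controls.

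Among the 3 miRNAs detected on both arrays the median log2 difference was -0.41, against 0.024 over all 261, whose middle part (from the lower to the upper quartile) ran from -0.66 to 0.73. All 3 values fell inside that range, that of miR-31-3p with no firm size. The miRNAs whose log2 difference was nearest to that of miR-205-5p were miR-3195 (-0.42), miR-6812-5p (-0.40) and miR-939-5p (-0.39), and 44 miRNAs lay within the spot spread of miR-205-5p. The nearest to miR-31-5p were miR-199a-3p (-0.63), miR-3135b (-0.64) and miR-200c-3p (-0.64), with 80 within its spread. The intensities of miR-199a-3p, 5.87 and 5.95, were within 2 SD of the negative control mean on both arrays. No nearest miRNAs are given for miR-31-3p, whose oe-NC signal was not above the negative controls. This likeness is measured over 2 arrays only, and many miRNAs lay within each spread.

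Other miRNAs of squamous and epidermal tissue were looked up as well. Of a list of 10, chosen for their known place in such tissue, 8 were detected on neither array, as were 2092 of all 2549 miRNAs. This count does not set the list apart from the rest. Among the 8 were miR-944, which lies within TP63, and miR-184, which is abundant in corneal epithelium. miR-21-5p, a broadly expressed miRNA raised in many carcinomas, had an intensity of 577 ± 222 (SD, 18 spots) on the oe-NC-labelled array and 970 ± 282 (SD, 16 spots) on the oe-HOTTIP-labelled array, a scaled log2 difference of 0.098. miR-149-5p was marked as detected on the oe-NC-labelled array only, at 7.85 ± 2.20 (SD, 17 spots) against 4.48 ± 1.97 (SD, 20 spots). Its scaled signal was 2.75-fold lower on the oe-HOTTIP-labelled array, with no firm size, since both values were within 2 SD of the negative control means. Only miR-21-5p of the 10 was detected on both arrays, so the list gives no 2-fold count to set against all miRNAs.

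The labelled cell type was checked against miRNAs known to mark cell types. Of 7 epithelial markers on the array, 4 were detected on the oe-NC-labelled array and 5 on the oe-HOTTIP-labelled array. Of all 2549 miRNAs, 328 (12.9%) and 390 (15.3%) were detected on these arrays. The epithelial counts include miR-205-5p, detected on both arrays, and miR-203a-3p, detected on neither, so they are not independent of the miRNAs described above. Of the miR-200 family, miR-200b-3p, miR-200c-3p and miR-141-3p were detected on both at log2 differences of -0.65, -0.64 and 0.17, and miR-429 on neither. miR-200a-3p was detected on the oe-HOTTIP-labelled array only, at 4.91 ± 3.34 (SD, 17 spots), within 2 SD of the negative control mean. Of 8 stromal and muscle markers, 5 were detected on neither array, including miR-143-3p and miR-145-5p, against 2092 of all 2549 miRNAs. miR-126-3p was detected on both at a log2 difference of 0.042, with no firm size. Its oe-NC signal of 6.81 was within 2 SD of the negative control mean. The muscle miRNA miR-206 was detected on the oe-HOTTIP-labelled array only, at 14.4 ± 2.78 (SD, 19 spots) against -1.11 ± 2.48 (SD, 19 spots). miR-133a-3p, also of muscle, was detected on the oe-NC-labelled array only, at 8.94 ± 2.95 (SD, 20 spots) against 0.17 ± 1.98 (SD, 19 spots). Its 8.94 was little above the negative control mean plus 2 SD, 8.62. For miR-206 and miR-133a-3p the undetected signal lay under the negative control mean, so no fold is given. Of 3 liver and neural markers, miR-122-5p was detected on both arrays at a log2 difference of 0.064, and miR-9-5p and miR-124-3p on neither. Of 7 blood and serum markers, 5 were detected on both arrays, against 261 of all 2549 miRNAs. miR-451a, the miRNA of red blood cells, had an intensity of 2233 ± 869 (SD, 10 spots) and 2552 ± 346 (SD, 14 spots). The summed intensity of the blood and serum list was 2282 on the oe-NC-labelled array and 2628 on the oe-HOTTIP-labelled array before scaling, and 8.15 and 5.98 after it. The blood and serum sum was mostly miR-451a, at a log2 difference of -0.46, while its 5 detected miRNAs ran from -1.75 to 1.38 and miR-142-3p and miR-142-5p were detected on neither array. Both ends of that range have no firm size. miR-486-5p (-1.75) was at 5.91 on the oe-HOTTIP-labelled array and miR-150-5p (1.38) at 4.04 on the oe-NC-labelled array, each within 2 SD of the negative control mean. The part of blood and serum RNA in the miR-205-5p value was not tested.

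The sign of the miR-205-5p difference depended on how the arrays were brought to one scale. The difference was -0.39 with scaling by the labelling spike-ins, and from -0.58 to -0.29 with the other percentiles and the median. Without scaling it was 0.24, and with detection defined as over 50% of spots well above background, which changes the miRNAs that set the percentile, it was 0.086. In both cases the median of all miRNAs with a value was higher, at 0.67 and 0.49, and miR-205-5p less that median was -0.44 and -0.40. A single factor per array cannot change a value taken relative to that median, so only the alternatives of another kind bear on it. Relative to it, miR-205-5p was at -0.12 with quantile normalization, at -0.039 with normexp and an offset of 50, at -0.30 with normexp without an offset, and at 0.11 in the deposited table under its own column names. Summed intensity gave -0.42, outlier spots kept -0.41, the median over spots -0.46 and the brightest probe -0.42. The filter at 2 SD above the negative controls gave -0.34 and the deposited table with its columns exchanged -0.11. The table of normalized log2 values that the authors deposited lists miR-205-5p at 6.78 in the column named for oe-NC and 7.07 in the column named for oe-HOTTIP, a difference of 0.30. It lists miR-31-5p at 0.72 and 1.55 and miR-31-3p at 0.55 and 0.62, while miR-205-3p, miR-203a-3p and miR-203a-5p stand at the floor of 1e-06 in both columns. Its columns followed the scanner values of the opposite arrays, with a Spearman's rho across miRNAs of 1.00 for the crossed columns against 0.77 and 0.76 for the columns as named. Such correlations run across miRNAs, not across replicates. They do not tell whether the table columns or the scanner files were assigned to the wrong sample. With the columns exchanged the miR-205-5p and miR-31-5p differences had the sign of the scanner values, at -0.30 and -0.83, and the miR-31-3p difference was -0.076.

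**Figure D4:**
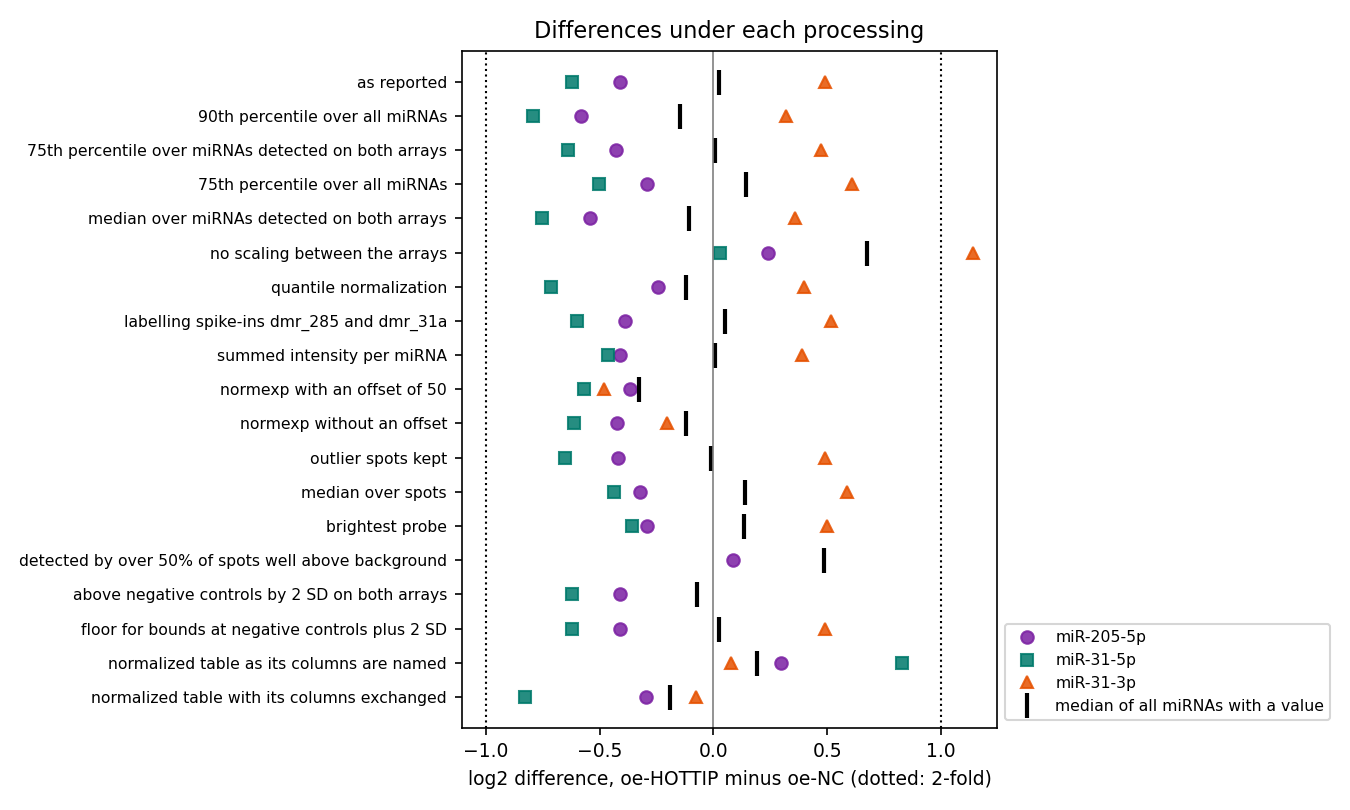
Log2 difference (oe-HOTTIP minus oe-NC) of miR-205-5p, miR-31-5p and miR-31-3p under each processing, with black ticks for the median of all miRNAs that had a value and dotted lines at 2-fold. miR-205-5p was below 0 in 15 of the 18 alternatives, and the 1 value beyond 2-fold was that of miR-31-3p without scaling, 1.14. Not every alternative could change the miR-205-5p sign, and the deposited table counts once in each column order, with opposite signs.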

How the data were processed

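miRNA was measured in exosome RNA on 1-colour Agilent human miRNA arrays with probes from miRBase, 1 array per group. The authors deposited scanner output with a background-subtracted intensity per spot, an intensity summed per miRNA and flags, and a table of normalized log2 values. The labels name Agilent Feature Extraction 10.10 and the file header 11.5.1.1, and GeneSpring with normalization to the 90th percentile is given in the methods.

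Control spots and outlier-flagged spots were left out, spots were averaged per probe and probes per miRNA, and values were divided by the array's 90th percentile among the 261 miRNAs with a detection flag on both, then put on the log2 scale. The threshold was 2-fold. No test was run. Spreads combine the relative spot SDs of both arrays. The precision is limited by the number of arrays. All 6 miRNAs were named, with the 3 nearest in log2 difference where both signals exceeded the negative control mean. These miRNAs and the marker lists were chosen with earlier results of these data known. Alternatives were other scalings, background corrections (normexp, run on median signals since the scanner columns hold no mean signal), summaries, detection rules and the table. The summary was tested on simulated data with planted changes beyond the 2-fold threshold, in miRNAs clearly above the negative controls. That test does not cover smaller differences or signals near the negative controls. Python 3.11.15, numpy 2.4.6, pandas 2.3.3, scipy 1.17.1, matplotlib 3.10.9, R 4.3.3 and limma 3.58.1 were used.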

Additional observations from a re-analysis of the deposited data

How the results depend on the processing

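Of 18 alternatives, 15 kept the sign of the miR-205-5p difference (-0.41), with no value beyond 2-fold. It was above 0 without scaling (0.24), with detection by over 50% of spots well above background (0.086) and in the deposited normalized table under its own column names (0.30), whose columns followed the scanner values of the opposite arrays. Not every alternative could change the sign. The filter at 2 SD above the negative controls and the floor for miRNAs detected on 1 array only leave this value as it is. The deposited table counts once in each column order, with opposite signs. miR-31-5p was above 0 without scaling (0.027) and in that table (0.83). miR-31-3p was below 0 with normexp and an offset of 50 (-0.48), with normexp without an offset (-0.21) and in the table with its columns exchanged (-0.076). Without scaling, 1 of the 6 miRNAs, miR-31-3p, passed 2-fold, its oe-NC signal being no higher than the negative controls. Otherwise none passed. Detection by over 50% of spots gave no value for the arms of miR-31, and a filter at 2 SD above the negative controls none for miR-31-3p. Among all miRNAs, 47 were at least 2-fold higher, against 101 without scaling, 7 with normexp and the offset, 24 with normexp without it and 31 with the 2 SD filter. The lower ones numbered 55, against 30 without scaling, 26 with normexp and the offset and 20 with detection by over 50% of spots. Without scaling the median of all miRNAs was 0.67. Signals near the negative controls limit both arms of miR-31. No paired analysis was possible because a single array stands for each group.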
